A study of Mus musculus with 72 samples.

Results

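The data describe barcoded reporter genes that had integrated on mouse chromosome 5, chosen as every integration listed with a chromosome 5 position on the mm9 build. They number 1063 of 17857 listed integrations. The reporters were carried by piggyBac, a DNA transposon, and driven by the mouse phosphoglycerate kinase promoter (mPGK). The host was EBRTcH3, a mouse embryonic stem cell line in which the endogenous ROSA26 promoter drives a tetracycline-controlled transactivator, an allele that all groups share. All cells were grown with leukemia inhibitory factor, the MEK inhibitor PD0325901 and the GSK-3 inhibitor CHIR99021. The plasmid library and an mPB transposase plasmid were transfected together, and cells with low eGFP were then sorted.

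The sorted cells were grown for 5 days, small pools were isolated and grown for 7 days, and each pool was divided into 2 cultures grown apart for 7 more days. The 6 pools, mPGK-A to mPGK-F, hold different integrations of the same construct, and no pool is a treated or control group. The labels call the 2 cultures of a pool technical replicates, so every p-value here measures only the spread between these cultures. For each culture, reads of every barcode were counted in cDNA and in genomic DNA. Chromosome 5 holds 178 integrations of mPGK-A, 187 of mPGK-B, 165 of mPGK-C, 158 of mPGK-D, 182 of mPGK-E and 193 of mPGK-F. All 1063 positions are distinct, though some lie 1 base apart on opposite strands. A barcode is 16 bases long in most cases, and 59 of these integrations carry a barcode that is also listed in another pool.

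A promoter placed at many sites of a genome is transcribed to different degrees, a behaviour known as position effect. Chromatin state, nearby enhancers and the local density of active genes are the usual correlates. The phosphoglycerate kinase promoter belongs to a housekeeping gene of glycolysis and drives broad expression, and piggyBac inserts at TTAA sites with a known preference for open chromatin. Where mapped integrations are sparse or dense is therefore itself a feature of the chromosome's landscape.

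Since 1 promoter was read at every site, its sequence is shown first. The mouse Pgk1 promoter region, 250 bases before to 50 bases after the start of the gene, is given from RefSeq on build GRCm38.p6, chrX:106186850-106187149, plus strand. Which exact fragment the reporter carries is not stated in the labels. Capitals mark GGGCGG, the GC box bound by Sp1 family factors, searched on both strands.

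Pgk1 promoter: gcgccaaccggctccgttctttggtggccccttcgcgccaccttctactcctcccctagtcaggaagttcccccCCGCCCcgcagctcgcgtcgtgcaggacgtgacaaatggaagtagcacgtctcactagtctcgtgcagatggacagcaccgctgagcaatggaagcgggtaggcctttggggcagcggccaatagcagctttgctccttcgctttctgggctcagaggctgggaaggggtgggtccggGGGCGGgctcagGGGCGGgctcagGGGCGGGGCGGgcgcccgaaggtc

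The window of 300 bases is 66.7% G and C and holds GGGCGG 5 times, with 2 of the copies overlapping by 1 base. Of 32851 mouse promoter windows of the same length, 35.7% hold it at least once. TATAAA was not in this window, and 13.6% of the windows hold it on either strand.

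Barcodes of the stretch that did most to raise chromosome 5 in mPGK-D are shown next, since they are the tags that were counted. They belong to 8 consecutive integrations within 126 kb, all called above their pool's median.

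mPGK-D, position 120037411, plus strand: acgttcgactaatggt
mPGK-E, position 120039048, plus strand: ttctgaaatagttcgt
mPGK-D, position 120054422, plus strand: ccacattctttagaaa
mPGK-D, position 120062625, minus strand: gattacatagtgtctg
mPGK-D, position 120112073, minus strand: tcgaatttcctactga
mPGK-C, position 120124327, minus strand: gaatcatcgctaaaaa
mPGK-D, position 120160162, minus strand: tcattatatttctgtt
mPGK-D, position 120162982, plus strand: agtagattacacctgt

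Expression of an integration is given as log2 of its share of RNA reads over its share of DNA reads, with 0 at the median of its pool over all chromosomes. The value is the mean of the 2 cultures after 0.5 read was added to each RNA count. DNA totals per pool and culture ran from 3386477 to 3693449 reads and RNA totals from 2880244 to 3508366. Chromosome 5 integrations had a median of 1588 DNA reads and 610 RNA reads over both cultures, and the lowest had 45 DNA reads. The SD between the 2 cultures of an integration was 0.75, against an SD of 2.41 between integrations.

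Chromosome 5 reporters spanned a wide range around the genome's level. Their mean was 0.00, and the 5th and 95th percentiles were -4.25 and 3.66, a 241-fold span. By edgeR's quasi-likelihood test of RNA against DNA counts, with Benjamini-Hochberg adjustment over all 17857 integrations, 424 (39.9%) were called higher than the pool median, 336 (31.6%) lower, and 303 were not called. Over all chromosomes 36.9% were called higher and 33.7% lower, so both shares on chromosome 5 lay close to that background. With a scaling that was not centred on the pool median, 382 were called higher and 386 lower, which turns the order of the directions. More than 16-fold above the median stood 35 integrations, or 3.29% (2.47% over all chromosomes), and more than 16-fold below stood 62, or 5.83% (6.48%). No RNA read was found for 10 of the 1063 integrations, against 184 of 17857 over all chromosomes.

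**Figure D1:**
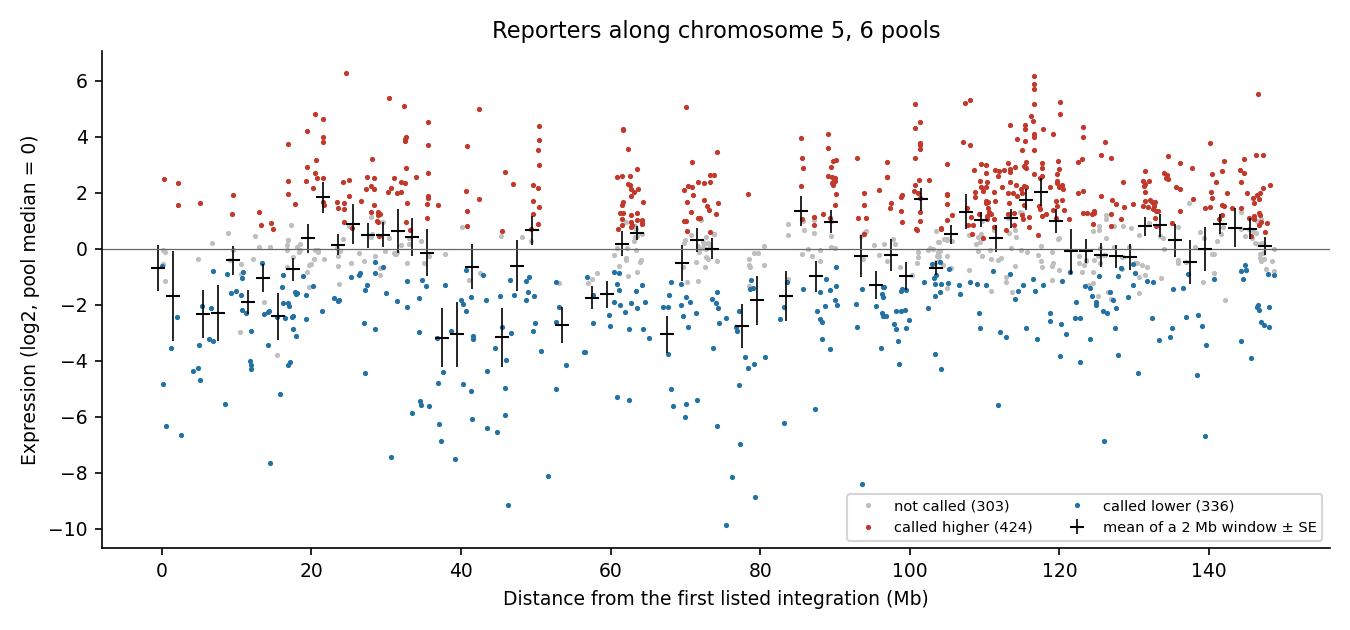
Expression of all 1063 chromosome 5 integrations (log2, pool median 0) against the distance from the first listed integration in Mb. Colours give the edgeR call and black marks the mean ± SE over integrations of each 2 Mb window with at least 5; reporters thin out and sink in the first 100 Mb of the chromosome and crowd above 0 around 115 Mb.

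The nearer and the farther parts of the chromosome differed in level and in density. Up to position 100000000, 560 integrations (5.81 per Mb) had a mean of -0.50, with 32.9% called higher and 40.0% lower. From 100000001 on, 503 integrations (9.65 per Mb) had a mean of 0.56, with 47.7% called higher and 22.3% lower. The farther part was higher in all 6 pools, by 0.64 in mPGK-D to 1.62 in mPGK-A. All 10 integrations without an RNA read and 54 of the 62 that were more than 16-fold below the median lay in the nearer part. The dividing position was chosen after the values were seen, so this is a description.

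Windows of 2 Mb were classed against the genome. A window with at least 5 integrations was called high if its mean was above 0.42, the upper quartile of 1116 such windows in the genome, and low if it was below -1.17, the lower quartile. Of 67 such windows on chromosome 5, 22 (32.8%) were high and 16 (23.9%) low, where 25% of each would match the genome. The median number of integrations was 19.5 in high windows and 7 in low ones. Another 8 windows held 1 to 4 integrations, 19 in all, with a mean of -3.78, of which 16 were called lower and 0 higher, and 1 window was empty. Low reporters and few mapped reporters thus occurred in the same places.

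Runs of adjacent high windows numbered 5. Windows were classed by these same values, so the calls and pool means inside high and low runs are a description. The strongest high run was chr5:116000001-124000000, with 110 integrations at 13.75 per Mb and a mean of 1.45, which is 2.73-fold above the pool median. There 64.5% were called higher and 13.6% lower, and all 6 pools had a mean above 0, from 0.99 in mPGK-F to 2.35 in mPGK-D. Without mPGK-D its mean was 1.24, so its height did not rest on that pool. A short way before it, chr5:108000001-114000000 held 59 integrations with a mean of 0.98, and again all 6 pools were above 0, from 0.57 in mPGK-E to 1.56 in mPGK-D.

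The remaining high runs were lower and less even among pools. The run chr5:28000001-36000000 held 60 integrations with a mean of 0.59, and its pool means ran from -0.78 in mPGK-A to 1.42 in mPGK-D. Its mean without mPGK-D was 0.36, a smaller value than the 0.42 that defines a high window. The next window, from 36000001, narrowly missed that cutoff, with 0.4223 against 0.4225, so the right end of this run rests on the cutoff. In chr5:134000001-138000000 the 37 integrations had a mean of 0.82, with 22 called higher and 4 lower. The last run, chr5:144000001-150000000, had 49 integrations with a mean of 0.78, and mPGK-A was its highest pool at 1.77 and mPGK-F its lowest at -0.23.

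Runs of low windows were short, each of 2 windows, and all lay in the first 84 Mb. The deepest was chr5:40000001-44000000, where 14 integrations had a mean of -3.12, which is 8.70-fold below the pool median, and 11 were called lower against 1 higher. Its 4 mPGK-D integrations were less low than the others, and without them the mean was -3.71. In chr5:8000001-12000000 the 12 integrations had a mean of -2.32, and all 5 pools present were below 0. The 20 integrations of chr5:80000001-84000000 had a mean of -2.30, and 12 of them were called lower and 1 higher. The shallowest run, chr5:60000001-64000000, held 12 integrations with a mean of -1.69, of which 8 were called lower and 0 higher.

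Single windows reached further than the runs. The 5 highest windows, named by their starts, were 120000001 (mean 2.03, SE 0.49, 27 integrations), 24000001 (1.84, SE 0.56, 13), 104000001 (1.77, SE 0.41, 23), 118000001 (1.76, SE 0.38, 25) and 88000001 (1.34, SE 0.54, 10). These 5 means lay within about 1 SE of their neighbours in this order. Each of the 5 still held integrations below 0, the lowest from -3.23 to -1.44. The 5 lowest windows began at 40000001 (mean -3.18, SE 1.05, 8 integrations), 48000001 (-3.16, SE 1.06, 11), 70000001 (-3.05, SE 0.66, 7), 42000001 (-3.05, SE 1.16, 6) and 80000001 (-2.76, SE 0.79, 10). Their order cannot be told from these errors. In the window from 70000001 all 7 integrations were called lower, whereas the window from 48000001 also held an integration at 2.74.

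Steep edges, where the means of adjacent windows differed by at least 2 log2 units, occurred at 8 boundaries. At 40000000 the mean fell by 3.03, from -0.15 (SE 0.84, 15 integrations) to -3.18 (SE 1.05, 8 integrations). A gap of 1012 kb lies there, with the last reporter before it already at -5.60 and the first after it at -3.20. The last 3 before the gap averaged -0.71 and the first 3 after it -2.15. At 44000000 the mean rose by 2.41, from -3.05 (SE 1.16, 6 integrations of 2 pools) to -0.63 (SE 0.80). These 2 edges enclose the deepest low run. Rises followed at 50000000 (2.55, from -3.16 to -0.61) and at 72000000 (2.54, from -3.05 to -0.52), each on leaving a low window. The SEs were 1.06 and 0.91 at the first and 0.66 and 0.64 at the second.

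The other 4 edges bound 2 isolated high windows. The window from 88000001 rose by 3.02 over the one before it, where 7 integrations averaged -1.67, and the next window fell by 2.33 to -0.98. The window from 104000001 stood 2.76 above its left neighbour (-0.98, 14 integrations) and its right neighbour fell by 2.46 to -0.69 (24 integrations). At 104000000 the step was sharp at the scale of single integrations: the last 3 before it averaged -1.64 and the first 3 after it 3.22, with 278 kb between the nearest of them. At 106000000 it was not, with 0.09 before and -0.18 after, so that fall took place inside the window. Nor was it at 90000000, where the last 3 before averaged -0.26 and the first 3 after 0.54.

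Gaps of at least 1 Mb without an integration numbered 17 and covered 25.1 Mb, while the median distance between neighbours was 68.9 kb. The widest ran from 93695852 to 96299814 (2604 kb), from 57587951 to 59946693 (2359 kb), from 84167036 to 86204870 (2038 kb), from 68627857 to 70490493 (1863 kb) and from 87260303 to 88988550 (1728 kb). Of the 34 integrations that flank the 17 gaps, 23 (67.6%) were called lower and 5 (14.7%) higher, against the backgrounds of 33.7% and 36.9%, and their mean was -2.23. The first 4 of these gaps had called-lower reporters on both sides, at values from -4.16 to -1.96. The fifth differed: its left flank was at 0.48 and its right flank at 2.23. Sites were mapped by inverse PCR after a DpnII digest, and whether unmappable sequence adds to the gaps was not tested.

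Reporters with few neighbours had lower means than those with many. The 180 integrations with no other within 100 kb had a mean of -1.26 (SE 0.18), those with 1 to 2 neighbours (495) -0.31 (SE 0.10), those with 3 to 6 (346) 0.90 (SE 0.11) and those with 7 or more (42) 1.70 (SE 0.35). The share called lower went from 52.8% in the first class to 35.8%, 17.1% and 11.9% in the following ones, and the share called higher from 18.9% to 33.5%, 56.9% and 64.3%. Pools differed within a class: in the first the pool means ran from -2.20 to 0.50, and in the second from -0.68 to 0.10. The neighbours come from the same list, so the classes share sites.

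Calls also ran along the chromosome integration by integration. Consecutive integrations called in the same direction formed 191 runs of higher calls, 19 of them with 5 or more members, and 172 runs of lower calls, 12 of them with 5 or more. The longest comprised 13 lower integrations from 4 pools, from 67811035 to 73102348, with values from -5.63 to -1.19. Next came 11 higher integrations from 5 pools within 328 kb, from 118686693 to 119014349, with values from 1.05 to 4.42. The third comprised 10 lower integrations from all 6 pools, from 77916579 to 81456095, and 3 of these had no RNA read. The fourth held 9 higher integrations from 64786665 to 65198478. The fifth, 8 lower ones from 14237798 to 15440071, tied in length with several runs of higher calls farther along. Of these 5 runs, the 2 higher ones each spanned under 0.5 Mb and the 3 lower ones over 1 Mb. The tied higher runs spanned 126 to 739 kb.

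Inside the run of 11, an mPGK-A integration at 118902921 had 650 and 551 DNA reads and 4473 and 4316 RNA reads in the 2 cultures, for a value of 4.42. An mPGK-D integration only 78 bases away had 957 and 663 DNA reads and 4471 and 5142 RNA reads, for 4.29. In the same run an mPGK-F and an mPGK-C integration 26 bases apart, on opposite strands, had 2.88 and 3.10. These pairs, from separately isolated pools, differed by less than the SD between cultures of 0.75. They were picked from within a run of higher calls and do not stand for all such pairs. Other pairs from different pools, 1 base apart on opposite strands, differed by 0.49 to 2.85.

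Nearby reporters were more alike than distant ones, but not uniformly so. The 105 pairs within 5 kb, of which 93 joined different pools, differed by a median of 1.31, or 2.47-fold. The median difference grew with distance, to 1.46 for pairs 5 to 50 kb apart, 1.91 for pairs up to 500 kb apart and 2.18 for pairs 10 to 50 Mb apart. As a description, the correlation between the members of a pair was 0.47 in the closest class, 0.38 in the next (543 pairs), 0.14 in the third (4361 pairs) and 0.01 in the farthest (241778 pairs). An integration enters many pairs, so pairs are not independent. Of the 105 close pairs, 49 were called in the same direction and 10 in opposite directions. These counts have no background from other distances here. Differences over 16-fold were found in 9 close pairs (8.57%), against 10.7% at 5 to 50 kb and 22.3% at 10 to 50 Mb.

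The 3 most unequal close pairs are printed with their barcodes, since each sets a high and a low reporter side by side.

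mPGK-C, position 49393458, plus strand: tagggttatgaggctt
mPGK-E, position 49397293, plus strand: gcgggctagactgtac
mPGK-B, position 96468729, minus strand: gtgctcataccaaatga
mPGK-D, position 96471894, minus strand: tccaataaactttttt
mPGK-F, position 120029190, minus strand: ttgagacgcgtaactt
mPGK-B, position 120030912, minus strand: aacgtgcctctcaagt

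In the first pair, 3835 bases apart, the mPGK-C reporter had 1606 and 2235 DNA reads and 4829 and 4376 RNA reads, for a value of 2.74. The mPGK-E reporter had 1231 and 1375 DNA reads but only 9 and 21 RNA reads, for -4.97, so the 2 differed by 209-fold in the same orientation. The second pair, 3165 bases apart, had -2.78 and 3.24, a 64.9-fold difference, and its mPGK-D member was shallow, with 98 and 49 DNA reads. The third pair, 1722 bases apart, had 4.58 and -1.09, a 50.8-fold difference. It lies less than 10 kb before the run of 8 barcodes printed above. The low mPGK-B reporter thus sat between high ones, mPGK-F at 4.58 and mPGK-D at 5.71. Pool and site cannot be told apart in these pairs.

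Among single reporters, the 5 highest were mPGK-D at 28119015 (6.27), 120062625 (6.16), 120112073 (5.87) and 120037411 (5.71) and mPGK-A at 149994699 (5.54). The top reporter had 360 and 302 DNA reads against 7720 and 7971 RNA reads, 77.1-fold above its pool's median (edgeR log2 ratio 6.26 ± 0.18 SE, Benjamini-Hochberg adjusted p = 2.08e-08, higher in 2 of 2 cultures). Of these 5, 4 thus came from mPGK-D and 3 from within 75 kb of each other. The 5 lowest with RNA reads in both cultures were mPGK-A at 38094411 (-5.59), mPGK-F at 65957772 (-5.40), mPGK-D at 64329114 (-5.29), mPGK-B at 71606157 (-5.02) and mPGK-E at 49397293 (-4.97), all in the nearer part of the chromosome. The low reporters came from 5 pools and from separate places.

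Of the 10 reporters without an RNA read, the 3 with the most DNA reads were mPGK-A at 78880781 (1220 and 1542 DNA reads), mPGK-C at 49723806 (1050 and 599) and mPGK-B at 82779141 (716 and 565). The floor was set at 3 RNA reads over both cultures together, which covers counting error only. Against it these 3 reporters were at least 313-fold, 199-fold and 158-fold lower than their pools' medians. None of the 10 belonged to mPGK-D or mPGK-F.

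The strands were compared by their means, without a test. The 510 plus-strand integrations had a mean of -0.12 (SE 0.11) and the 553 minus-strand ones 0.11 (SE 0.10).

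Pools differed in how chromosome 5 compared with their own other chromosomes. Chromosome 5 minus the rest was -0.15 in mPGK-A, 0.13 in mPGK-B, -0.09 in mPGK-C, 0.88 in mPGK-D, 0.26 in mPGK-E and 0.20 in mPGK-F. The mean over pools was 0.21 ± 0.37 (SD, n = 6), and without mPGK-D it was 0.07 ± 0.18 (SD, n = 5). In mPGK-D the 2 cultures, which share the same integrations, gave 0.85 and 0.90. Among 114 such values, for 19 autosomes in 6 pools, 0.88 was the second highest, after 0.91 for chromosome 11 in mPGK-B. Chromosome 11 was above 0 in every pool, with a lowest value of 0.38, whereas chromosome 5 had the widest SD over pools of the 19 autosomes.

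**Figure D2:**
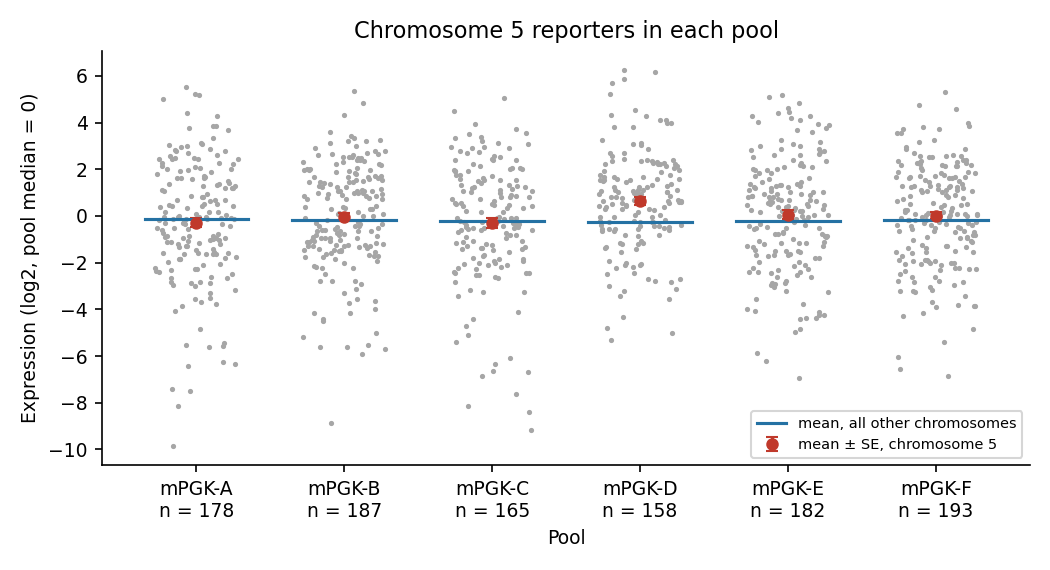
Expression (log2, pool median 0) of each chromosome 5 integration by pool, with the mean ± SE over integrations in red and the mean of the pool's other chromosomes as a blue line. In mPGK-D the red mean (0.62) stands above the blue line (-0.25), and few points lie below -4.

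The calls showed the same difference in both directions. In mPGK-D 48.7% of chromosome 5 integrations were called higher (background of that pool 36.0%) and 19.6% lower (33.1%). The same shares were 35.4% and 39.3% in mPGK-A (backgrounds 37.4% and 33.8%), 41.7% and 33.2% in mPGK-B (36.9% and 33.0%), and 34.5% and 32.7% in mPGK-C (36.7% and 34.4%). They were 36.8% and 31.9% in mPGK-E (36.5% and 33.4%) and 42.5% and 31.6% in mPGK-F (38.0% and 34.7%). In the other 5 pools, each share lay within 6 points of its background. The 5th percentile was -3.00 in mPGK-D against -5.96 to -3.82 in the others, and only 4 mPGK-D reporters (2.53%) were more than 16-fold below the median, against 7 to 14 in each other pool. At the upper end mPGK-D resembled mPGK-E. Their 95th percentiles were 4.14 and 4.10, against 3.09 to 3.68 in the other pools. More than 16-fold above the median stood 10 mPGK-D and 11 mPGK-E reporters, against 2 to 6 in the others.

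The mPGK-D reporters on chromosome 5 had a mean of 0.62 (n = 158) and those of the other pools together -0.11 (n = 905), a difference of 0.73 or 1.66-fold. When the pool medians were not subtracted the difference was 0.48, while the comparison with the pool's own other chromosomes does not depend on that step. No test was made, because integrations are not replicates of a pool and mPGK-D is 1 pool. The median depth of its chromosome 5 members was 1510.5 DNA reads, against 1777 on its other chromosomes and 1462.5 to 1695 for chromosome 5 in the other pools. Fewer of its integrations lay on the chromosome, 4.99% against 5.75% to 6.55% in the others.

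The difference was divided by window into a part from which windows held the mPGK-D integrations and a part from their level within a window. Where reporters lay inside a window counts as level, so level is not strength at the same site. Place gave 0.02 (2.82%) and level 0.71 (97.2%), and with stretches of 10 Mb place gave 0.05 (6.23%) and level 0.68 (93.8%). The share of integrations in high windows was 42.4% in mPGK-D and 38.2% to 42.7% in the others. In low windows it was 8.86% in mPGK-D and 9.55% to 16.4% in the others. The place value is a net sum in which windows with more and with fewer mPGK-D reporters cancel, and single windows differed: that from 120000001 held 5.70% of mPGK-D members and 1.99% of the others. Of 59 windows that hold mPGK-D and other reporters, mPGK-D was higher in 38 and lower in 21.

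**Figure D3:**
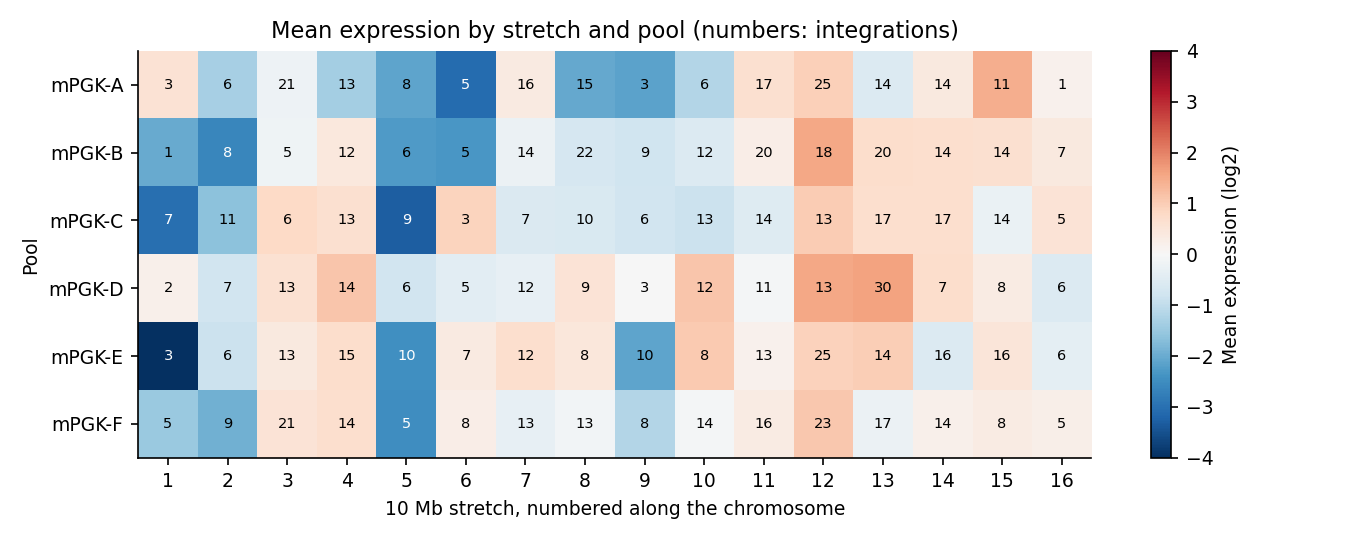
Mean expression (colour, log2) in 16 stretches of 10 Mb along the chromosome (x axis) for each pool (rows), with the number of integrations printed in each cell. The mPGK-D row has no deep blue cell, and its thirteenth stretch holds 30 integrations.

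Across the 16 stretches mPGK-D was above the pooled others in 12, and it was the highest of the 6 pools in 9, while mPGK-A and mPGK-C were each highest in 3, mPGK-E in 1 and mPGK-B and mPGK-F in 0. In 2 of the 9 the lead was slight: 1.54 in both mPGK-D and mPGK-B from 110000001, and 0.69 against 0.68 in mPGK-C from 130000001. Several cells hold few integrations, down to 2 for mPGK-D. The difference was larger in the nearer part of the chromosome. Up to 100000000 the mPGK-D mean was 0.32 against -1.03 to -0.27 in the other pools, and beyond it 0.96 against 0.35 to 0.73. In the stretch from 40000001, where all pools were low, mPGK-D was at -0.77 and the others between -3.29 and -2.09.

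The stretch chr5:120000001-130000000 added most, 0.29 of the 0.73. It held 30 mPGK-D integrations, 19.0% of that pool's chromosome 5 members, against 7.69% to 10.7% in each other pool. Their lowest, median and highest values were -2.70, 1.38 and 6.16, and those of the 82 other integrations were -6.88, -0.01 and 5.18, so the ranges overlap. Of the mPGK-D integrations 60.0% were called higher and 16.7% lower, against 42.7% and 24.4% of the others. The stretch from 90000001 came next with 0.11, where 12 mPGK-D integrations had a mean of 1.11 and 53 others -0.33. Without the stretch from 120000001 the difference was 0.54.

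**Figure D4:**
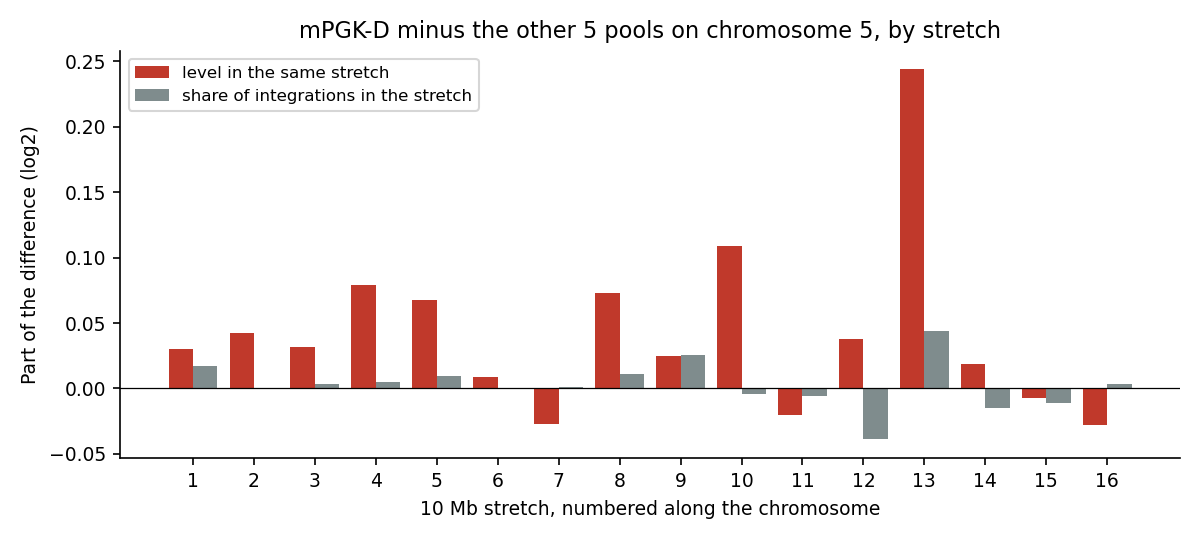
Parts of the difference between mPGK-D and the other 5 pools (log2) for each of 16 stretches of 10 Mb along the chromosome, from the level within the stretch (red) and from the share of integrations placed there (grey). The level in the thirteenth stretch gives the tallest bar, and most other red bars are above 0.

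The 5 windows of 2 Mb that added most gave 0.38 together, with 22 of the 158 mPGK-D members. Outside them, a choice made on the same values, the difference was 0.40 and mPGK-D exceeded its own other chromosomes by 0.58. The leading window, chr5:120000001-122000000, added 0.16. Its 9 mPGK-D reporters had a mean of 3.26 with values from -0.44 to 6.16, and its 18 others had a mean of 1.41 with values from -3.23 to 5.18. Pool means there were 3.06 in mPGK-A (1 integration), -0.52 in mPGK-B (5), 2.56 in mPGK-C (3), 2.21 in mPGK-E (4) and 1.68 in mPGK-F (5).

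Within that window the strong reporters were crowded at the start. The 8 barcodes printed above, 6 of them from mPGK-D, lie between 120037411 and 120162982. In order of position their values were 5.71, 5.18, 4.09, 6.16, 5.87, 3.54, 3.99 and 2.68. The mPGK-E reporter among them, at 120039048, had 2393 and 2427 DNA reads and 31767 and 28182 RNA reads, 36.2-fold above its pool's median. The mPGK-C reporter at 120124327 had 272 and 396 DNA reads and 1451 and 1315 RNA reads, 11.6-fold above. The run is defined by its higher calls, so high values of its members are a description. The nearest integrations on either side, both from mPGK-B, were called lower, at -1.09 (120030912) and -1.50 (120291931). Just before the first of these lay the mPGK-F reporter at 120029190, with 4.58. In the whole window, place gave 0.06 and level 0.11 of the 0.16. That level part includes the crowding of mPGK-D reporters at the window's start, and strength at matched sites was not compared. The 3 further mPGK-D reporters of the window, at 120633656, 120788414 and 121013088, had -0.24, 1.53 and -0.44.

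**Figure D5:**
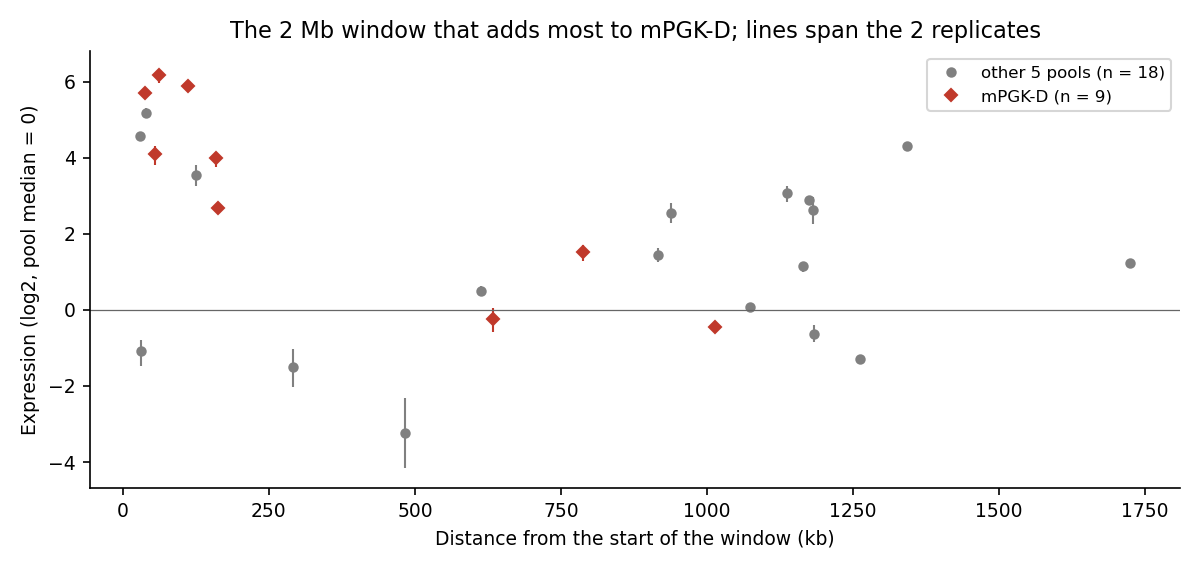
Expression (log2, pool median 0) of the 27 integrations of the window chosen as adding most to mPGK-D, against distance from the window's start in kb, with lines spanning the 2 cultures. Of the 9 mPGK-D reporters, 6 sit between 2.68 and 6.16 near the start of the window, beside 3 high reporters and 1 low reporter of other pools.

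The following windows each rested on fewer reporters. From 126000001, 7 mPGK-D reporters had a mean of 1.52 and 17 others -0.73, which added 0.08. The ranges overlapped, -2.48 to 4.34 against -4.06 to 3.22. From 28000001, 2 mPGK-D reporters at 6.27 and 1.89 met 8 others with a mean of 0.07, which added 0.05, and the 6.27 is the highest reporter of the chromosome. From 38000001, 3 mPGK-D reporters (mean 1.80) met 12 others (-0.63), which added 0.04. From 48000001, 1 mPGK-D reporter at 0.65 met 10 others with a mean of -3.54, which also added 0.04.

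Some windows took from the difference. In the high window from 104000001, 3 mPGK-D reporters had a mean of 0.17 and 20 others 2.02, which took 0.04 (contribution -0.04). From 56000001, 2 mPGK-D reporters had a mean of -3.11 and 4 others -2.51, and from 150000001, 6 had -0.56 and 21 others 0.30, each with a contribution of -0.03. mPGK-D was thus not higher everywhere, and it was the lowest of the 6 pools in the last stretch of the chromosome. The same division in the other pools gave smaller totals, from -0.36 in mPGK-C and -0.34 in mPGK-A to 0.07 in mPGK-E.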

How the data were processed

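The data were barcode read counts in RNA and genomic DNA from 2 cultures of each of 6 pools, with the mapped position of each barcode. The authors deposited raw counts, and per the submitters' processing notes they used Bowtie2 2.0 and build mm9; how the 2 PCRs per culture were combined is not stated. PCR reads are not independent molecules, so floors cover counting error only. Positions are printed as listed. The members, windows and rules were chosen with earlier results of these data known. No annotation of mm9 was used here, so positions are not assigned to genes.

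Calls came from edgeR 4.0.16 in R 4.3.3 (quasi-likelihood, TMM factors centred so that a pool's median log2 ratio is 0, adjusted p threshold 0.05), fitted to all integrations of each pool and tested on simulated data; the low-count filter removed none. DESeq2 1.42.0 was an alternative. Named items followed fixed rules: all window runs and edges, the 5 highest and lowest windows and integrations, the 5 widest gaps and longest runs of calls, and the windows that moved mPGK-D most. RNA and DNA of a culture share its replicate number per the labels, and their deviations correlated at -0.00213 to 0.0575.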

Additional observations from a re-analysis of the deposited data

Results flagged for a closer look

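In the stretch chr5:30000001-40000000 the lowest pool, mPGK-A, had a mean of -1.37, far from the other 5 pools, whose means were 0.44 to 1.12. The gap to the nearest pool was 0.726 of the whole range, above Dixon's 95% critical value for 6 samples. Of 23 pool comparisons examined this way only this one passed, and chance flags about 1 in 20. The value of mPGK-D for chromosome 5 minus the rest did not pass (0.599).

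Chromosome 5 lay below the pool's other chromosomes in both cultures of mPGK-A (-0.146) and of mPGK-C (-0.0914) and above them in both cultures of mPGK-D (0.875). The difference between these pools was not tested, and the 2 cultures of a pool share their integrations.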

How the results depend on the processing

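The excess of mPGK-D over the other pools on chromosome 5 (0.73) was 0.476 without subtraction of the pool median. In alternatives chosen after seeing the data it was 0.403 without the 5 windows that add most and 0.538 without the stretch from 120000001. As a percentile rank within the pool it was 8.42 points. Under its other 12 alternatives it moved by less than the spread between pools, and without replicate 1 or 2 it was 0.701 and 0.706. Chromosome 5 minus all other chromosomes, 0.198 over all integrations, was 0.0775 without mPGK-D, 0.266 without mPGK-A, 0.252 without mPGK-C, and 0.181 to 0.217 without 1 culture. Windows of 4 Mb gave 14 high windows in place of 22, and windows of 1 Mb gave 33. A minimum of 10 integrations gave 9 low windows in place of 16. These settings also change how many windows can be classed, so the counts are not comparable as shares. Without mPGK-D 19 of the 22 high and 12 of the 16 low windows remained.

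With the replicate block, which pairs RNA and DNA of a culture, 422 integrations were called higher and 319 lower. DESeq2 called 427 and 331, and TMM scaling without centring 382 and 386. Leaving out the RNA or the DNA counts of 1 culture in every pool gave 389 to 410 higher and 285 to 311 lower. Shallow reporters limit single values. With a floor of 3 RNA reads over both cultures together, the reporters without RNA lie at least 25.4-fold to 313-fold below their pools' medians. No more than this is known of them.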
